A study of Homo sapiens with 6 samples.

Results

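Beta-catenin (*CTNNB1*), its 4 DNA-binding partners of the TCF/LEF family (*TCF7*, *TCF7L1*, *TCF7L2*, *LEF1*), 4 genes of the complex that degrades it (*AXIN1*, *AXIN2*, *APC*, *GSK3B*) and the Wnt-responsive receptor gene *LGR5* were followed in SK-Hep1 cells after knockdown of the long non-coding RNA *RAB30-DT*. These 10 genes were chosen by name, though with earlier results of these data known. All 10 were found among the 62700 genes listed. RNA was sequenced from 3 control and 3 knockdown libraries of SK-Hep1, a line taken from a liver adenocarcinoma that is thought to be of endothelial origin. According to the study's methods, stable lines carried lentiviral shRNA against *RAB30-DT* or a control vector and were selected with puromycin (the control samples are titled as control shRNA, but their genotype is given as wild type). The 3 knockdown libraries were taken as replicates of 1 shRNA, and nothing in the labels says that libraries came from separate cultures, so the p-values below measure the spread between these libraries, which may be technical.

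Wnt signalling acts mainly by setting how long the beta-catenin protein lives. In cells without a Wnt signal, AXIN, APC, casein kinase 1 and GSK3 hold and phosphorylate beta-catenin, which is then ubiquitinated and degraded. When Wnt ligands engage Frizzled and LRP receptors this complex is inhibited, and beta-catenin enters the nucleus and switches on target genes through TCF/LEF factors, *AXIN2* and *LGR5* among them; in liver the pathway patterns pericentral hepatocytes, and *CTNNB1* and *AXIN1* are recurrently mutated in liver cancer. Beta-catenin also links cadherins to the cytoskeleton at adherens junctions. The values here are RNA levels in TPM, a scale with a common total per library on which reads are divided by transcript length so that genes can be compared with each other, and none of them measures the amount, phosphorylation or place of a protein.

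The targeted RNA, *RAB30-DT*, was listed at 18.2, 11.5 and 13.9 TPM in control replicates 1 to 3 and at 11.9, 10.9 and 6.50 TPM in knockdown replicates 1 to 3. Its mean was lower in the knockdown, but knockdown replicate 1 lay above control replicate 2, and the difference was not past the threshold (log2 fold change -0.55, SE 0.27, limma adjusted p = 0.356). Each library listed 20127 to 21675 genes above 0. Of 12 hepatocyte marker genes 2 averaged 1 TPM or more, and 5, including *ALB*, *APOB* and *HNF4A*, were listed at 0 throughout. Of 10 endothelial markers 1 averaged 1 TPM or more, and *KDR* and *ERG* were listed at 0 throughout. Of 10 mesenchymal markers 8 averaged 1 TPM or more and were tested, and none was called. Of these 8 *VIM* lay wholly higher in the knockdown, at 3883 ± 105 and 4615 ± 243 TPM (SD, n = 3), beside 9.89% of all genes tested. Another 3 lay wholly lower, beside 13.4% of all genes tested. They were *THY1* at 130.7 ± 25.2 and 89.2 ± 11.8 TPM, *PDGFRB* at 4.18 ± 1.72 and 1.13 ± 0.11 TPM, and *TAGLN* at 3.53 ± 1.95 and 1.24 ± 0.30 TPM (SD, n = 3). The summed hepatocyte markers ran from 21.9 to 30.1 TPM in control and from 31.3 to 42.2 TPM in knockdown libraries, mostly through *SERPINA1*. The summed endothelial markers overlapped, at 2.65 to 9.27 against 5.36 to 8.56 TPM, and the summed mesenchymal markers stood at 3920 to 4182 against 4466 to 4910 TPM, nearly all of it *VIM*, whose log2 fold change was 0.25 as reported and -0.05 with quantile normalization. The part of these shifts in the results below was not tested.

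Of the 10 genes, 8 averaged 1 TPM or more and were tested with all 14020 such genes; *TCF7*, just under that level, and *LGR5*, at 0, were not. *CTNNB1* fell and no other tested member passed the threshold of a limma adjusted p under 0.05, which makes 1 of 8 against 1.04% of all genes tested, or 0.67% counted in the lower direction alone. The 6 lower and 2 higher members had a median log2 fold change of -0.18, beside -0.04 and 53.7% lower over all genes tested. In 3 of the 8, *CTNNB1*, *GSK3B* and *TCF7L2*, every knockdown library lay below every control library, against 13.4% of all genes tested. Separation in either direction was seen in 23.3% of all genes tested, and separation upward, which no tested member showed, in 9.89%. As these are bulk samples, fewer cells with a transcript and less of it per cell cannot be told apart.

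**Figure D1:**
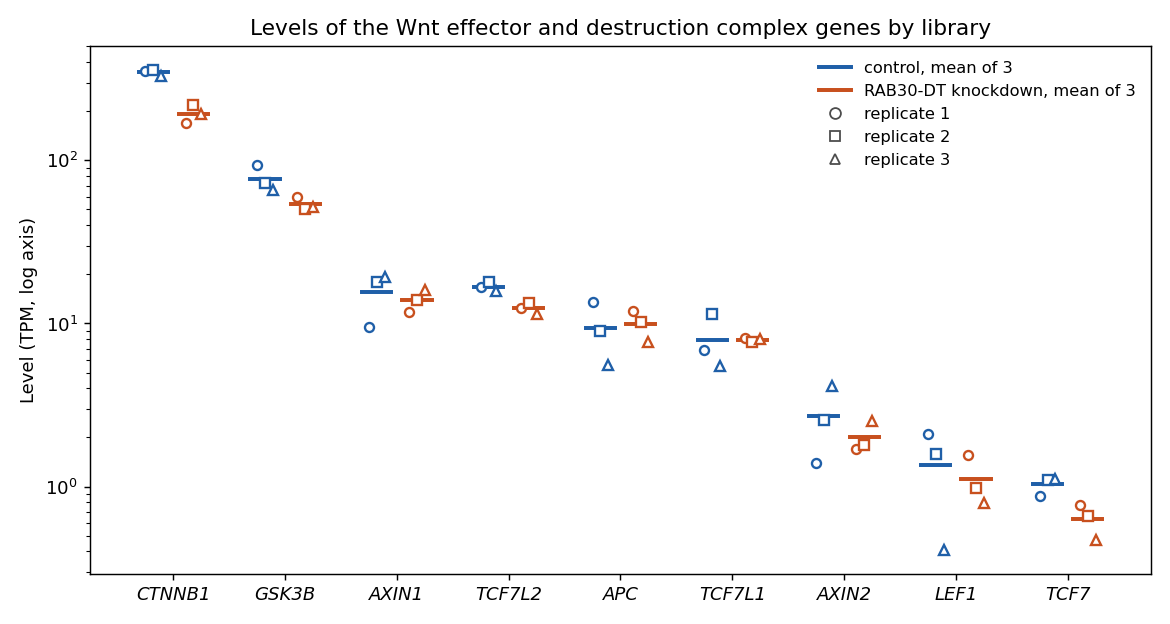
The vertical log axis gives the level in TPM of the 9 genes detected in any library, ordered by mean level, with open symbols for single libraries, shaped by replicate number, and bars for the mean of 3 libraries in control (blue) and *RAB30-DT* knockdown (orange). *CTNNB1*, *GSK3B*, *TCF7L2* and *TCF7* show knockdown libraries wholly below the control libraries; *LGR5*, at 0 in all 6 libraries, is not drawn.

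*CTNNB1* (ENSG00000168036.18, hg38 chr3:41194741-41260096, plus strand) was by far the highest of the 10 genes. It stood at 353, 359 and 329 TPM in control replicates 1 to 3 and at 169, 219 and 192 TPM in the knockdown replicates. The 2 groups did not overlap, and the lowest control library stood well above the highest knockdown library. The mean fell from 347 ± 16.0 to 193.5 ± 24.6 TPM (SD, n = 3), which is 55.7% of the control level. On the log2(TPM + 1) scale this was a change of -0.85 (SE 0.14, 95% interval -1.18 to -0.52, limma adjusted p = 0.0422). In order of mean level over all genes, *CTNNB1* stood at place 368 in control and at place 626 in knockdown cells. A fall of this size was uncommon but not unique at such levels: of 1425 tested genes that averaged 100 TPM or more, 60 had a fitted log2 fold change as low or lower. In order of adjusted p it stood at place 115 of all genes tested, near the edge of the 146 genes called.

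The direction for *CTNNB1* was kept in all 19 other ways of processing that were run, with log2 fold changes from -0.94 to -0.65, and 10 of them kept the call. The call depended on which libraries were kept. Leaving out control replicate 1 kept it (limma adjusted p = 0.0341). Leaving out control replicate 2 gave an adjusted p of 0.174 and leaving out control replicate 3 one of 0.0548. The same step gave 0.158 for knockdown replicate 1, 0.153 for knockdown replicate 2 and 0.180 for knockdown replicate 3. Over these 6 fits the log2 fold change of *CTNNB1* ran from -0.938 to -0.755. Over all genes 489, 12 and 160 were called without control replicate 1, 2 or 3. Without knockdown replicate 1, 2 or 3 the number was 18, 15 and 16, against 146 with all 6 libraries. Scaling the libraries to a common median ratio gave -0.81 with an adjusted p of 0.0561, just short of a call. Quantile normalization (0.0817), no filter on low values (0.105) and eBayes without trend (0.0957) lost the call as well.

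**Figure D2:**
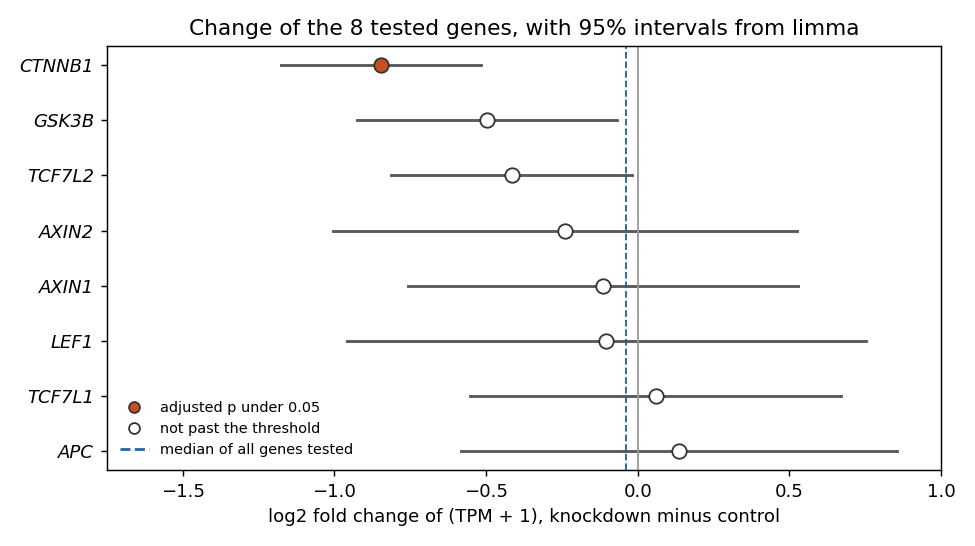
Points give the log2 fold change of TPM + 1, knockdown minus control, for the 8 tested genes, and lines their 95% intervals from limma (n = 3 against 3); the dashed line marks the median of all 14020 genes. The *CTNNB1* interval, -1.18 to -0.52, lies furthest to the left and is the only filled point; those of *GSK3B* and *TCF7L2* end just below 0 and the other 5 span it.

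The position of *CTNNB1* relative to its partners was read within each library, where any scaling of the whole library cancels. A library's trend with GC content, described below, does not cancel there. For each TPM of *TCF7L2* there were 21.1, 20.1 and 20.7 TPM of *CTNNB1* in the control libraries and 13.7, 16.4 and 16.8 TPM in the knockdown libraries. The ratio to *CTNNA1*, which encodes the alpha-catenin that ties beta-catenin to actin, was 1.64, 2.11 and 1.91 in control and 0.917, 1.15 and 1.27 in knockdown libraries. Both ratios were lower in every knockdown library than in any control library, as were those to *APC*, *AXIN1*, the N-cadherin gene *CDH2* and the p120-catenin gene *CTNND1* (exact permutation p = 0.1 for each, 2-sided, the smallest that 3 against 3 allows). These ratios all share *CTNNB1*, so where the partner changed little they restate its fall and are not separate results. The separation was narrow for *APC* (lowest control ratio 26.2, highest knockdown ratio 25.0), *AXIN1* (17.0 and 15.8) and *CDH2* (63.8 and 57.9). How many of all genes would give such a separation was not counted. The exceptions to it were 2 genes. The ratio to *GSK3B* overlapped, at 3.75, 4.97 and 5.03 against 2.84, 4.35 and 3.70. The ratio to *JUP*, which encodes the close beta-catenin relative plakoglobin, also overlapped, at 18.6, 15.1 and 33.8 against 24.6, 25.7 and 24.6.

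By the distance between centred log2 values over the 6 libraries, the genes most like *CTNNB1* among 8507 that averaged 10 TPM or more were ENSG00000290846 (root mean square difference 0.0857), *NUDCD3* (0.0872), *MYO10* (0.0914), *MYH9* (0.0925) and *TBC1D22A* (0.0983). As they were picked for nearness to the *CTNNB1* values, falls of like size are built into the choice. *MYH9*, the non-muscle myosin heavy chain, went from 219 ± 24.0 to 120.2 ± 9.57 TPM. *MYO10*, an unconventional myosin of filopodia, went from 77.6 ± 4.32 to 41.8 ± 7.08 TPM (SD, n = 3). The knockdown level was 56.5% of control for ENSG00000290846, 58.0% for *NUDCD3* and 55.0% for *TBC1D22A*. Among the members, *TCF7L2* came at place 358, *GSK3B* at place 780 and *AXIN1* at place 4722 of this order.

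Of the 4 destruction complex genes among the members, *GSK3B* (ENSG00000082701.17, chr3:119821321-120094994, minus strand), the kinase that marks beta-catenin for degradation, was the most highly expressed. Its levels were 94.3, 72.2 and 65.4 TPM in control and 59.6, 50.2 and 52.0 TPM in knockdown libraries. The groups were apart, though the lowest control library was close to the highest knockdown library. The means were 77.3 ± 15.1 and 53.96 ± 5.00 TPM (SD, n = 3), a knockdown level of 69.8% of control. The log2 fold change was -0.50 (SE 0.19, 95% interval -0.93 to -0.07), with an unadjusted p of 0.0279 and a limma adjusted p of 0.234. Its paralogue *GSK3A*, which can stand in for it in the complex, differed by -0.16, and the ratio of *GSK3B* to *GSK3A* overlapped between the groups, at 1.69, 1.05 and 0.964 in control and 1.15, 0.831 and 0.868 in knockdown libraries.

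*AXIN1* (ENSG00000103126.15, chr16:287440-352723, minus strand) encodes the scaffold that holds the complex together. It was listed at 9.57, 17.95 and 19.33 TPM in control and at 11.8, 13.9 and 15.9 TPM in knockdown libraries. All knockdown values lay inside the control range. The log2 fold change was -0.11 (SE 0.28, 95% interval -0.76 to 0.53, limma adjusted p = 0.874).

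*APC* (ENSG00000134982.18, chr5:112707518-112846239, plus strand), the tumour suppressor that binds beta-catenin within the complex, showed the mirror image over the libraries. Its levels were 13.5, 8.96 and 5.59 TPM in control and 12, 10.2 and 7.70 TPM in knockdown libraries, so that again the knockdown values lay inside the control range. The log2 fold change was 0.14 (SE 0.31, 95% interval -0.58 to 0.85, limma adjusted p = 0.865). *AXIN1* was lowest and *APC* highest in replicate 1 of both groups, and the ratio of *AXIN1* to *APC* went from 0.709 to 3.46 over the control libraries and from 0.982 to 2.07 over the knockdown libraries. This spread within a group exceeded the difference between the mean ratios of the groups, 2.06 and 1.47. The annotation of *APC* shares 230 exon bases with ENSG00000258864 on the same strand, which was listed at 0.

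The opposite courses of *AXIN1* and *APC* went along with a difference in the base composition of their transcripts. Whether this difference caused them was not tested. GC content was 63.5% for *AXIN1* and 39.6% for *APC*, beside a median of 48.7% over all genes tested. Over all genes, deviations from the gene mean followed GC content with Spearman's rho of -0.608, 0.297 and 0.489 in control replicates 1 to 3 and of -0.523, 0.0220 and 0.330 in knockdown replicates 1 to 3, as a description across genes. Once each library's trend with GC content was removed, *AXIN1* stood at 12.4 to 15.7 TPM and *APC* at 7.43 to 10.5 TPM over all 6 libraries. Both genes still overlapped between the groups. Over control replicates 1 to 3 *AXIN1* still rose, at 12.4, 15.3 and 15.7 TPM, and *APC* still fell, at 10.5, 9.19 and 7.43 TPM. *GSK3B* (GC content 42.2%) then stood at 78.1, 72.8 and 78.7 against 53.4, 49.7 and 58.4 TPM and passed the threshold (limma adjusted p = 0.0306), beside 8.86% of all genes that did so after this step. *CTNNB1* (GC content 44.7%) stood at 310, 364 and 374 against 155, 216 and 210 TPM and stayed past it (adjusted p = 0.0230).

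**Figure D3:**
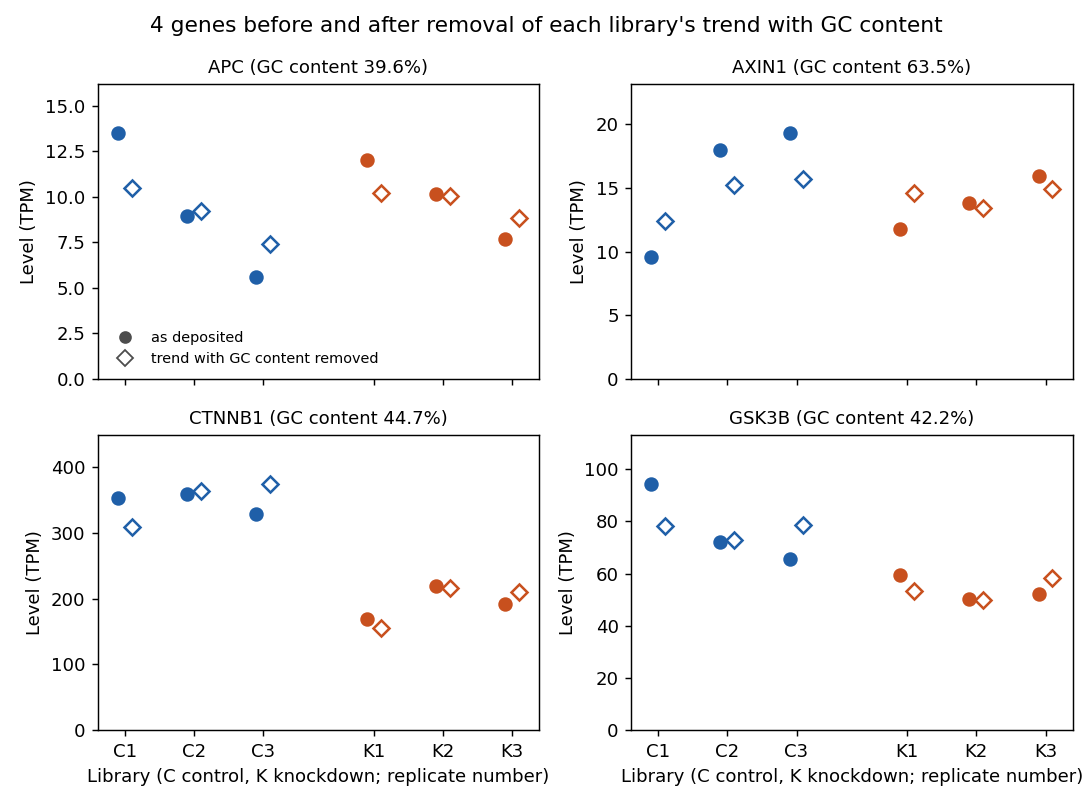
Each panel gives the level in TPM of 1 gene in control (C, blue) and knockdown (K, orange) libraries 1 to 3, as deposited (filled circles) and after removal of the library's trend with GC content (open diamonds). *APC* (low GC) and *AXIN1* (high GC) deviate in opposite directions in the same libraries as deposited. After removal the spread of each is narrower, though over the control libraries *AXIN1* still rises and *APC* still falls. *CTNNB1* and *GSK3B* keep the 2 groups apart on both scales.

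*AXIN2* (ENSG00000168646.14, chr17:65528563-65561648, minus strand), a second scaffold and a widely used transcriptional read-out of Wnt signalling, was low. It was listed at 1.39, 2.57 and 4.14 TPM in control and at 1.71, 1.79 and 2.52 TPM in knockdown libraries, with every knockdown value inside the control range. The log2 fold change was -0.24 (SE 0.33, 95% interval -1.0 to 0.52, limma adjusted p = 0.756). Its annotation shares 1316 exon bases with another protein-coding gene on the same strand, ENSG00000266076, that was listed at 0, so the split of reads between them is uncertain.

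*LGR5* (ENSG00000139292.13, chr12:71439798-71586310, plus strand), the R-spondin receptor that marks Wnt-driven stem cells in several epithelia, was listed at 0 in all 6 libraries, and no fold change can be given. Its relatives were looked at in the R-spondin and LGR list, where *LGR4* stood at 17.7 TPM in control and 19.4 TPM in knockdown libraries. *ZNRF3*, the ubiquitin ligase that clears Frizzled and is held back by R-spondin with an LGR receptor, stood at 5.34 and 5.12 TPM. Neither passed the test.

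*APC* and *LGR5* were the 2 members whose canonical 3′UTR held the 7 bases GAGTGAA; this 7-mer was picked from earlier results on these data, so its presence is shown as a description only. The other 8 members, *CTNNB1*, *GSK3B* and *TCF7L2* included, held no copy. As *LGR5* was not tested, *APC* was the only 1 of the 8 tested members with a copy. Of 11539 tested coding genes 12.5% held at least 1. Both sites are printed 5′ to 3′ on the sense strand, hg38, with the 7-mer in capitals; the first lies at chr5:112845905-112845933 and the second at chr12:71584889-71584917.
APC 3′UTR: cactcagatagGAGTGAAtacacctacct
LGR5 3′UTR: ttgatacttgaGAGTGAAtataagtctaa

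The 4 TCF/LEF factors, which bring beta-catenin to DNA and act as repressors without it, were expressed very unequally. *TCF7L2* (ENSG00000148737.18, chr10:112950247-113167678, plus strand) was listed at 16.8, 17.9 and 15.9 TPM in control and at 12.4, 13.3 and 11.5 TPM in knockdown libraries. The groups were apart and the spread within each was small. Means were 16.8 ± 0.99 and 12.4 ± 0.93 TPM (SD, n = 3), or 73.6% of control. Its log2 fold change was -0.41 (SE 0.17, 95% interval -0.81 to -0.02), with an unadjusted p of 0.0427 and a limma adjusted p of 0.279. Its exons share 300 bases with a lncRNA gene on the opposite strand, ENSG00000233547, whose mean was 0.743 TPM in control and 0 in knockdown libraries.

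*TCF7L1* (ENSG00000152284.5, chr2:85133392-85310387, plus strand), the family member known mostly as a repressor, was listed at 6.83, 11.4 and 5.47 TPM in control and at 8.09, 7.72 and 7.99 TPM in knockdown libraries. Its knockdown libraries were nearly equal while its control libraries were not, with means of 7.93 ± 0.19 and 7.91 ± 3.13 TPM (SD, n = 3). The log2 fold change was 0.06 (SE 0.27, 95% interval -0.55 to 0.67, limma adjusted p = 0.934). *LEF1* (ENSG00000138795.10, chr4:108047545-108168956, minus strand), itself a Wnt target in many cells, was listed at 2.09, 1.59 and 0.41 TPM in control and at 1.57, 0.98 and 0.79 TPM in knockdown libraries. The knockdown range lay inside that of the control, with a log2 fold change of -0.10 (SE 0.37, 95% interval -0.96 to 0.75, limma adjusted p = 0.916). Its exons share 279 bases with the antisense *LEF1-AS1*, which averaged 0.247 TPM.

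*TCF7* (ENSG00000081059.20, chr5:134114681-134151865, plus strand), which encodes TCF-1, was the lowest of the 4 and was not tested. It was listed at 0.88, 1.10 and 1.11 TPM in control and at 0.77, 0.66 and 0.47 TPM in knockdown libraries. All knockdown libraries lay below all control libraries (exact permutation p = 0.1, 2-sided, the smallest possible). Its exons share 210 bases with those of *SKP1* on the opposite strand, a subunit of the ligase that ubiquitinates beta-catenin, which averaged 209 TPM, and without strand information reads of the 2 genes cannot be told apart there. So the low *TCF7* values are uncertain.

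Summed over the 4 factors, the TCF/LEF level was 26.6, 32.0 and 22.9 TPM in control and 22.8, 22.7 and 20.7 TPM in knockdown libraries. The groups were just apart, with the third control library almost level with the first knockdown library (exact permutation p = 0.1, 2-sided). *TCF7L2* made up 62.8% ± 6.81 of this sum in control and 56.1% ± 2.29 in knockdown libraries (SD, n = 3), followed by *TCF7L1* with 28.5% ± 6.38 and 36.0% ± 2.32. These shares overlapped between the groups (exact permutation p = 0.2 and 0.3).

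In control cells the order of mean levels was *CTNNB1*, *GSK3B*, *TCF7L2*, *AXIN1*, *APC*, *TCF7L1*, *AXIN2*, *LEF1*, *TCF7* and *LGR5*. At the first 2 steps, from *CTNNB1* to *GSK3B* and on to *TCF7L2*, the control libraries of the genes did not overlap. The same held for the step from *TCF7L1* to *AXIN2*. *TCF7L2* against *AXIN1*, *AXIN1* against *APC*, *APC* against *TCF7L1*, *AXIN2* against *LEF1* and *LEF1* against *TCF7* overlapped. In knockdown cells *AXIN1* and *TCF7L2* exchanged places, a pair whose levels overlapped in both groups.

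**Figure D4:**
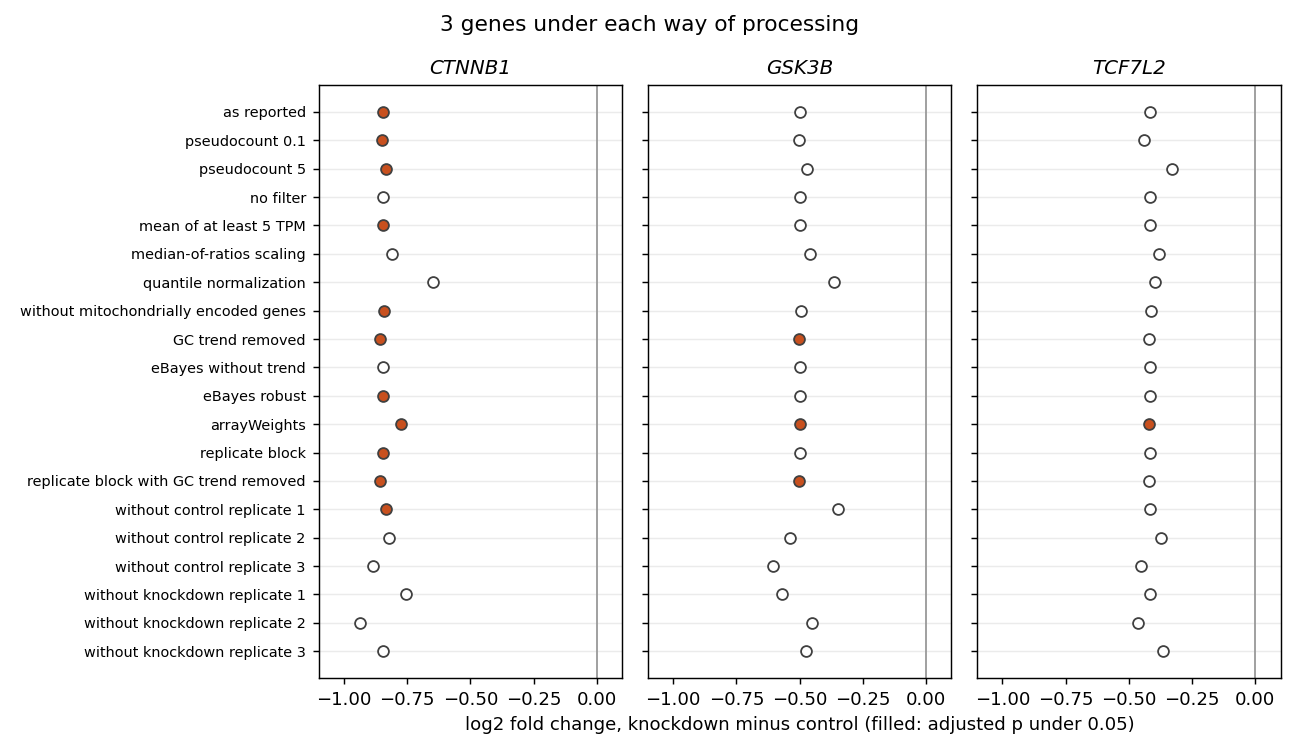
For *CTNNB1*, *GSK3B* and *TCF7L2*, points give the log2 fold change, knockdown minus control, as reported and under 19 other ways of processing, filled where the limma adjusted p was under 0.05. Every point lies left of 0; *CTNNB1* is filled as reported and in 10 others, *GSK3B* in 3 and *TCF7L2* in 1.

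None of the 8 members with a promoter entry in RefSeq (GRCh38.p14, 250 bases before to 50 after the start) held the TCF/LEF motifs CTTTGAT or CTTTGAA on either strand there; *AXIN2* and *LGR5* had no entry. Of all 35116 promoters of this length 6.86% held a match.

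The rest of the pathway was read from 157 further genes in 8 lists, of which 104 were tested. Of these 72 were lower and 32 higher, beside 53.7% lower over all genes tested. The median log2 fold change was -0.14, beside -0.04 over all genes tested. A call was made for 1 of the 104, about the share of 1.04% over all genes tested. All knockdown libraries lay below all control libraries in 22 of the 104, beside the 13.4% of all genes, and above them in 11, beside the 9.89%. The 1 gene called was *ID2*, a Wnt-responsive inhibitor of helix-loop-helix factors. It fell from 49.3, 54.1 and 102 TPM in control to 17.8, 23.8 and 17.9 TPM in knockdown libraries (log2 fold change -1.67, SE 0.29, limma adjusted p = 0.0432). The control libraries of *ID2* differed among themselves by more than the knockdown libraries did, yet the groups were well apart. Its adjusted p was 0.145 without control replicate 2 and 0.152, 0.153 and 0.180 when knockdown replicate 1, 2 or 3 was left out, while the call was kept without control replicate 1 (0.0206) or 3 (0.0312). It was also lost with median-of-ratios scaling (0.0674), quantile normalization (0.0522), no filter on low values (0.130) and eBayes without trend (0.0695).

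All 21 of the remaining destruction complex and turnover genes were tested and none was called. The median was -0.15 with 16 of 21 lower, beside 53.7% lower over all genes. In 6 of the 21 the knockdown libraries lay wholly lower, beside 13.4% of all genes, and in none wholly higher, beside 9.89%. *CSNK1A1*, the casein kinase that primes beta-catenin for GSK3, stood at 195.5 ± 6.74 and 139 ± 15.8 TPM (log2 fold change -0.49, limma adjusted p = 0.152). *PPP2CA*, the catalytic subunit of protein phosphatase 2A, stood at 359 ± 26.4 and 292.5 ± 8.97 TPM, and its regulatory subunit *PPP2R5A* at 24.7 ± 5.65 and 13.4 ± 2.72 TPM (adjusted p = 0.291 and 0.133; SD, n = 3). *SKP1* stood at 214 ± 64.4 and 204 ± 24.6 TPM with overlap. The neural *APC* relative *APC2* was low, at 4.86 ± 1.71 and 2.36 ± 0.46 TPM.

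Antagonists keep Wnt ligands or receptors from signalling. The list of 16 held 8 genes at 0 in every library and 6 tested genes, of which none was called. Of the 6, 4 were higher and 2 lower, beside 53.7% lower over all genes tested. In the 3 most abundant every knockdown library lay above every control library, beside 9.89% of all genes tested. *SFRP1*, a soluble Frizzled-like decoy, stood at 119.5, 119 and 77.9 TPM in control and at 223, 204 and 191 TPM in knockdown libraries (log2 fold change 0.98, SE 0.20, limma adjusted p = 0.0660). *DKK1*, which blocks LRP co-receptors and is itself a Wnt target, stood at 229.6, 174 and 140.3 against 335, 304 and 298 TPM (0.81, adjusted p = 0.0949), and its relative *DKK3* at 58.0, 49.7 and 31.9 against 79.8, 92.8 and 84.2 TPM (0.90, adjusted p = 0.112). Each of the 3 was apart from its control, while none passed the threshold. The other tested genes of the list overlapped, with log2 fold changes of 0.44 for *KREMEN1*, a DKK receptor, -0.34 for its relative *KREMEN2* and -0.30 for *TMEM131L* (limma adjusted p = 0.434, 0.654 and 0.699). Summed over the list, levels were 260.1 to 423 TPM in control and 588 to 653 TPM in knockdown libraries.

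**Figure D5:**
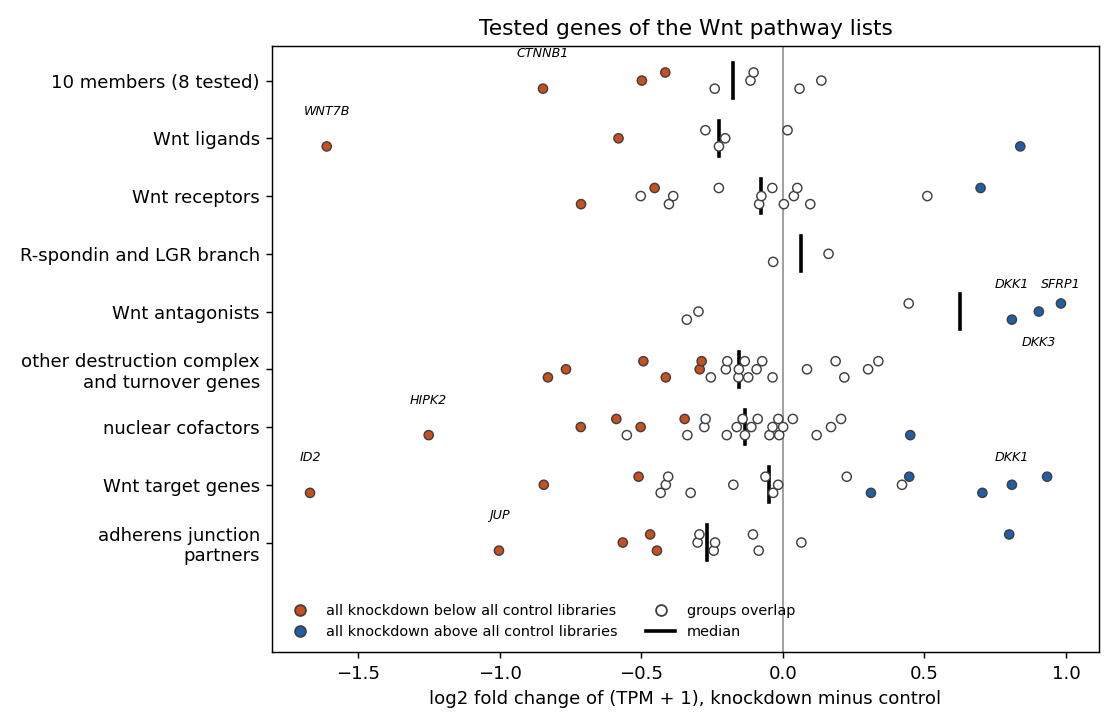
Points give the log2 fold change of TPM + 1, knockdown minus control, for every tested gene of the members (top row) and of 8 Wnt pathway lists, filled orange where all knockdown libraries lay below all control libraries and blue where they lay above; black bars are medians. The antagonists, with a median of 0.63, stand to the right of the other lists, whose medians run from -0.27 to 0.06, with 4 of their 6 genes right of 0 and 2 left of it.

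Of 21 genes in the ligand list, which also held *PORCN* and *WLS*, 7 were tested. The most abundant, *WNT5B*, stood at 208 and 210 TPM, followed by the Wnt carrier *WLS* at 45.7 ± 4.44 and 39.7 ± 5.75 TPM (SD, n = 3). *WNT7B* stood at 5.50, 7.96 and 15.2 TPM in control and at 1.74, 2.72 and 2.26 TPM in knockdown libraries (log2 fold change -1.61, limma adjusted p = 0.0786). *PORCN*, the acyltransferase that Wnt proteins need for secretion, stood at 8.66 and 15.8 TPM (0.84, adjusted p = 0.196). Of 18 genes in the receptor list, which also held *DVL1* and its relatives, 15 were tested and none was called. There were 9 lower and 6 higher, beside 53.7% lower over all genes tested. In 2 the knockdown libraries lay wholly lower and in 1 wholly higher, beside 13.4% and 9.89% of all genes tested. The most abundant were *FZD2* at 86.8 ± 28.1 and 89.6 ± 7.48 TPM and *DVL1*, which passes the signal on from Frizzled, at 72.9 ± 22.9 and 54.8 ± 12.8 TPM, both with overlap of the groups. *FZD7* stood at 16.2 ± 5.43 and 9.20 ± 0.62 TPM and *FZD4* at 0.96 ± 0.39 and 2.15 ± 0.31 TPM (SD, n = 3).

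Of the nuclear cofactors 25 of 26 were tested and none passed the threshold. Lower were 19 of the 25, beside 53.7% of all genes tested. In 5 the knockdown libraries lay wholly lower and in 1 wholly higher, beside 13.4% and 9.89% of all genes tested. *HIPK2*, a kinase that phosphorylates TCF factors, stood at 19.4, 17.8 and 11.2 TPM in control and at 6.31, 6.26 and 5.55 TPM in knockdown libraries (-1.25, limma adjusted p = 0.0588). *HDAC1*, a deacetylase in TCF corepressor complexes, stood at 160.2 ± 19.2 and 106 ± 6.94 TPM (-0.59, adjusted p = 0.119). *TLE5*, a short Groucho relative and the most abundant of the list, stood at 261 ± 58.7 and 236.5 ± 42.8 TPM with overlap, and *TBL1XR1*, a subunit of corepressor complexes, at 35.2 ± 10.5 and 20.8 ± 4.52 TPM (-0.71, adjusted p = 0.218). Among 18 of 31 target genes tested, 3 lay wholly lower, *ID2* with the glutamine synthetase gene *GLUL* and the Dishevelled antagonist *NKD2*, and 5 wholly higher, *CCND1*, *CD44*, *VEGFA*, *DKK1* and *TBX3*, beside 13.4% and 9.89% of all genes tested. The most abundant targets were *CD44* at 575.5 ± 78.9 and 711 ± 41.8 TPM and *FOSL1* at 382 ± 82.4 and 441 ± 38.1 TPM, and *TBX3* stood at 13.1 ± 4.58 and 24.8 ± 0.21 TPM (0.93, limma adjusted p = 0.145). *ID2* was the 1 call among the 18, beside 1.04% of all genes tested.

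The junction partners of beta-catenin were read because *CTNNB1* serves both pools. *CDH1*, the E-cadherin gene, was listed at 0 in all 6 libraries, and *CDH2* stood at 3.83 ± 1.91 and 3.76 ± 0.38 TPM (SD, n = 3). *CDH13*, which encodes a cadherin that lacks the beta-catenin-binding tail, stood at 67.7, 63.7 and 37.6 TPM in control and at 96.6, 102 and 89.0 TPM in knockdown libraries (0.80, limma adjusted p = 0.151). *CTNNA1* stood at 186 ± 25.9 and 175 ± 21.1 TPM and the vinculin gene *VCL* at 119.7 ± 29.8 and 95.7 ± 11.3 TPM, both with overlap. *JUP* was listed at 19.1, 23.8 and 9.72 TPM in control and at 6.90, 8.50 and 7.83 TPM in knockdown libraries (-1.0, limma adjusted p = 0.164), so the groups were apart although the control spread was wide. None of the 12 tested junction genes of 20 passed the threshold, and 10 of them were lower, beside 53.7% of all genes tested. In 4 of the 12 the knockdown libraries lay wholly lower and in 1 wholly higher, beside 13.4% and 9.89% of all genes tested.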

How the data were processed

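Values were the TPM the authors deposited per gene and library, rounded to 2 decimals. The submitters' processing notes name fastp, HISAT2 2.0.5 and hg38, whereas the study's methods name STAR and RSEM and GENCODE Release 45; all gene identifiers were those of Release 44, used here for positions and GC content. Read numbers cannot be had from TPM: depth is unknown, no counting interval is given and precision rests on 3 libraries per group; strand settings are not given in the sources used here. Genes averaging 1 TPM or more were analysed as log2(TPM + 1), which understates changes of low genes, in R 4.3.3 with limma 3.58.1 (lmFit, eBayes with trend, 2-sided, no replicate block). A call was a Benjamini-Hochberg adjusted p under 0.05 over all genes tested. The script was tested on simulated data. GC trends were removed by loess (span 0.3). Members, lists, motifs and tests were chosen with earlier results of these data known. Named genes were all members and, from each other Wnt list, called genes, the 2 highest by mean and the 2 with the largest absolute log2 fold change; *CSNK1A1*, *GSK3A*, *CDH1*, *CDH2*, *GLUL*, *NKD2*, *CCND1*, *VEGFA*, *CTNND1*, *KREMEN1*, *KREMEN2*, *TMEM131L* and the marker genes were named after their values were seen. Alternatives changed the pseudocount (0.1, 5), filter (none, at least 5 TPM), scaling (median-of-ratios, quantile, no mitochondrially encoded genes), GC trend, eBayes options, arrayWeights and replicate block, and left out each library.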

Additional observations from a re-analysis of the deposited data

How the results depend on the processing

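With 1 member called as reported, the count was 0 without a filter, 0 with median-of-ratios scaling, 0 with quantile normalization and 0 with eBayes without trend, 2 with the GC trend removed, 2 with the replicate block and the GC trend removed, 3 with arrayWeights and 0 to 1 when a library was left out. Over all genes 146 were called as reported (52 higher, 94 lower; 68 and 68 with median-of-ratios scaling, 78 and 83 with quantile normalization), 13 without a filter, 1242 with the GC trend removed, 3218 (23%) with arrayWeights, 861 with the replicate block, 1074 with the block and the GC trend removed, and 12 to 489 when a library was left out. Among the other Wnt genes the count was 1 as reported, 0 without a filter, 0 with eBayes without trend, 2 with median-of-ratios scaling, 2 with quantile normalization (*HIPK2* and *SFRP1* in both, without *ID2*), 13 with the GC trend removed, 13 with the block and the GC trend removed, 11 with the block alone, 30 with arrayWeights and 0 to 5 when a library was left out. Members without overlap numbered 3, and 3 to 5 when a library was left out. Fewer libraries make separation easier, and its share over all genes was not computed for those settings. *CTNNB1*, *GSK3B* and *TCF7L2* kept their direction in all 19 alternatives. *TCF7L1* reversed to -0.36 with arrayWeights and ranged from -0.14 to 0.33 when a library was left out, as did *LEF1* from -0.44 to 0.13, *AXIN1* from -0.41 to 0.06, *AXIN2* from -0.52 to 0.032 and *APC* from -0.15 to 0.42. Other named genes that reversed were *WNT5B* (-0.225 with arrayWeights, -0.125 to 0.168 when a library was left out), *LGR4* (-0.070 to 0.386), *ZNRF3* (0.011 with the GC trend removed, alone and with the replicate block; -0.218 to 0.072), *CDH2* (-0.033 with arrayWeights; -0.291 to 0.329), *CTNNA1* (0.106 with quantile normalization, 0.069 with arrayWeights; -0.146 to 0.026), *FZD2* (-0.185 with arrayWeights; -0.181 to 0.306), *SKP1* (0.002 with median-of-ratios scaling, 0.149 with quantile normalization, 0.247 with arrayWeights; -0.155 to 0.198), *TLE5* (0.081 with quantile normalization; -0.335 to 0.013) and *VIM* (-0.053 with quantile normalization). Same-numbered libraries correlated at 0.410, 0.0359 and 0.279 in their deviations, so replicates 1 and 3 shared part of theirs and replicate 2 hardly any. The labels do not say that the numbers pair libraries, and the main fit had no replicate block. With the block the *CTNNB1* call stayed in place (limma adjusted p = 0.0229). The cause of the shared deviations and of the shifts between settings was not tested. In arrayWeights both second replicates weighed most (control 3.00, knockdown 4.39; the other 4 libraries at most 0.948).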
